A study of Arabidopsis thaliana with 14 samples.

Results

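Transcripts of the UDP-glycosyltransferase (UGT) family were followed on 14 single-colour arrays of Arabidopsis thaliana seed. The members are 45 of the 22746 probe sets tested, namely those that the platform annotation pairs with exactly 1 gene whose symbol begins with UGT and a digit. They stand for 45 different genes, and all 45 were found in the RefSeq gene table (TAIR10.1 assembly), which lists 58 UGT symbols. The probe sets of UGT78D1 and UGT78D2 were left out, as were 3 probe sets that the annotation pairs with a UGT gene together with another gene.

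Seed of the mutant ga1-3 was imbibed on KAR1 (3 arrays) or on water (3 arrays), and seed of the Landsberg erecta wild type (WT) on KAR1 (4 arrays) or on water (4 arrays). KAR1 is a karrikin, a butenolide from smoke that promotes germination. It was given at 1 uM in agar of 0.8%, and the water groups had the same agar without it. All seed was primary dormant and was imbibed for 24 h at 20 C in white light of 100 uE. The ga1-3 mutant lacks a working GA1 gene, whose product catalyses an early step of gibberellin synthesis. Its seed does not germinate and KAR1 does not change this, while dormant WT seed germinates more on KAR1, per the series' design text. The annotation pairs 0 probe sets with GA1 alone, so the mutated gene itself could not be followed. The ecotype is labelled for WT only. Each array of a group was made from a separately harvested seed batch, lettered A to C in ga1-3 and A to D in WT, and the KAR1 and water arrays of 1 genotype and letter share their seed.

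UGT enzymes move a sugar, most often glucose, from a UDP-sugar onto a small molecule. Conjugation usually makes a hormone inactive, and it makes phenolic compounds more soluble and fit for storage in the vacuole. Plant seeds hold flavonoid glycosides, sinapate esters and, in Arabidopsis and its relatives, glucosinolates. Abscisic acid, the hormone that maintains dormancy, can be removed from its active pool by glucosylation.

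Each value is a GCRMA intensity on a linear scale, 1 per probe set and array. The median intensity of an array lay between 10.4 and 12.6, and 46.8% to 47.6% of probe sets reached 16 on an array. Intensity 16 marks low values below. The arrays were divided into 3 clusters by 21 probe sets for spiked-in control transcripts, called hybridisation clusters here. The number of 3 was set for the clustering and not found by it. The sample labels used here name no hybridisation batch, so the clusters are not known batches. Seed batch A of ga1-3 lay in 1 cluster with WT C and D, WT A and B formed another, and ga1-3 B and C the third. A genotype difference fitted with the cluster as a block therefore rests on ga1-3 batch A against WT C and D. With 1 ga1-3 seed batch behind it, its p does not measure the spread between ga1-3 batches. Of 26 marker genes of seed and other tissues, the annotation names probe sets for 3, and for 0 of the 12 seed markers, so the labelled tissue could not be checked with them. A seed storage cupin, AT1G03890, chosen after its values were seen, lay between 686.9 and 2056.1 on all arrays. The leaf marker RCA (Rubisco activase) averaged 29.5 in ga1-3 on KAR1 and 30.6 in ga1-3 on water, against 11.6 and 13.6 in WT on KAR1 and on water. The root marker PYK10 averaged 5.6 and 5.8 in ga1-3 on KAR1 and on water, against 67.7 and 37.0 in WT. The seed coat marker BAN stayed between 4.5 and 5.2 in all groups. Whether these differences bear on the UGT values was not tested. Whole seed was assayed, so fewer cells of a type and less RNA per cell cannot be told apart.

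Of the 45 members, 27 had all 4 group means under 16, which is 60.0% against 50.4% of all probe sets. On every array 24 of these 27 stayed under 9, and their highest value was 17.6, for UGT84A3 in 1 WT array. The other 18 members had at least 1 group mean of 16 or more. Of these, 6 (UGT71B1, UGT73B4, UGT76C2, UGT78D3, UGT84A1 and UGT85A2) reached a mean of 16 in ga1-3 only, so their passing this mark already goes with being higher in ga1-3. The remaining 12 also averaged 16 or more over all 14 arrays.

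**Figure D1:**
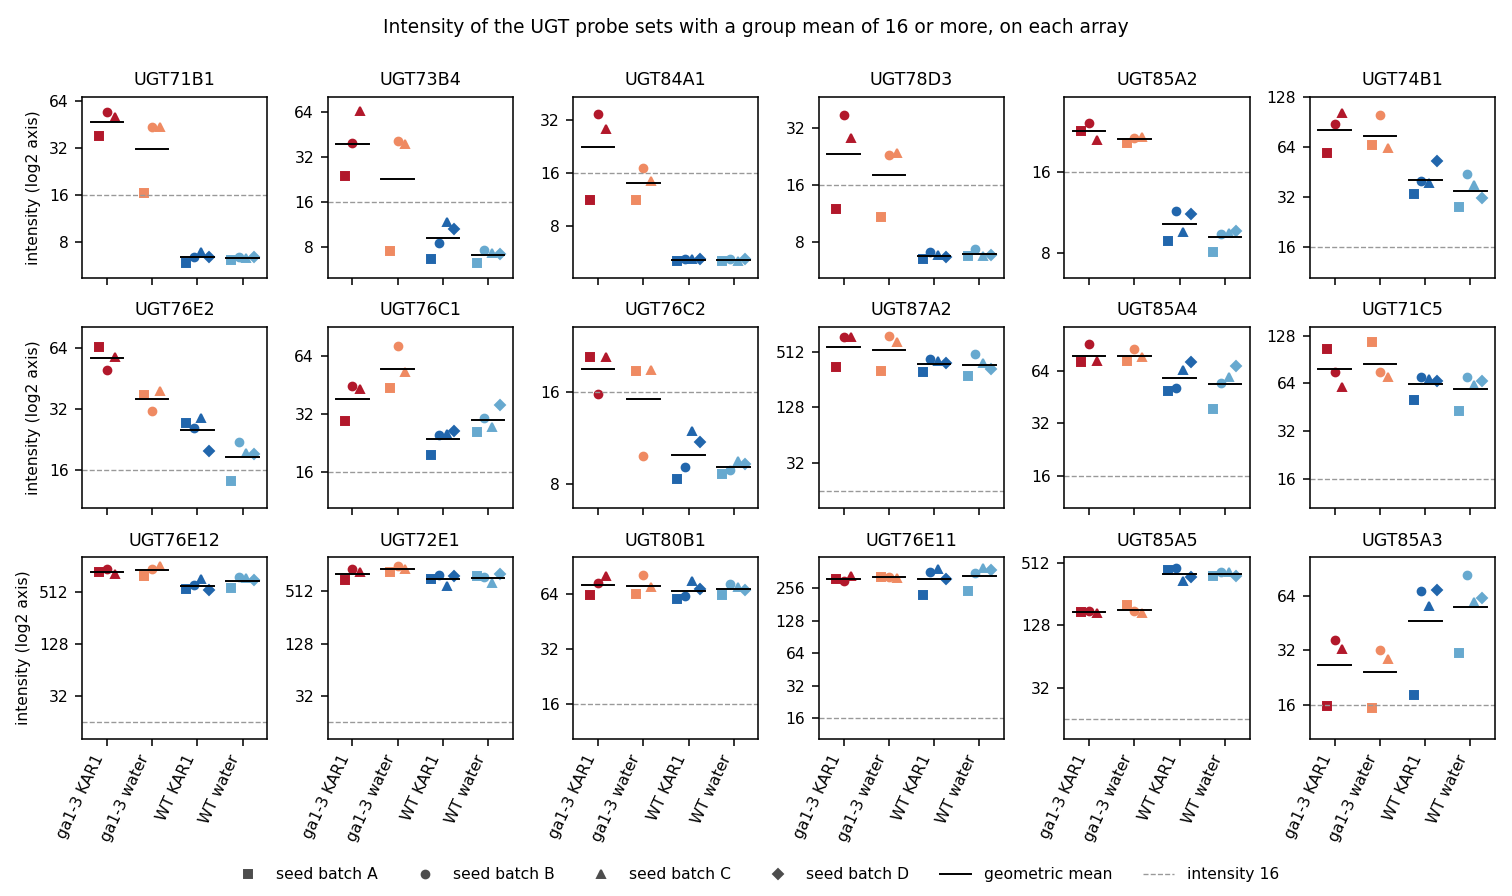
Intensity of the 18 UGT probe sets with at least 1 group mean of 16 or more, on each array, with a log2 y axis and one panel per gene. Symbols mark seed batches, black lines geometric means of the 3 (ga1-3) or 4 (WT) arrays and the dashed line intensity 16. UGT71B1 lies between 16.5 and 54.1 in ga1-3 and between 5.9 and 6.9 in WT, and UGT85A5 lies between 167.8 and 203.0 in ga1-3 and between 342.6 and 462.3 in WT. Panels have their own y ranges, and levels of different probe sets are not comparable.

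The genotype comparison asks which UGT transcripts differ between seed that cannot make gibberellin and seed that can. More members were higher in ga1-3 than lower on both treatments. A member was called where its limma p, adjusted after Benjamini and Hochberg over all 22746 probe sets, was under 0.05. On KAR1, 18 members (40.0%) were called higher in ga1-3 and 5 (11.1%) lower, where 19.3% and 18.3% of all probe sets were called higher and lower. On water, 20 members (44.4%) were higher and 6 (13.3%) lower, against 19.7% and 16.8% of all probe sets. The median log2 difference, ga1-3 minus WT, was 0.10 for members and 0.00 for all probe sets on KAR1, and 0.09 and 0.00 on water. All 23 members called on KAR1 were also called on water with the same sign. The log2 differences on KAR1 and on water share no array, but the comparisons share seed batches. Their p also rest on the same spread per probe set, taken from all 14 arrays. The calls on KAR1 and on water are therefore not independent of each other.

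The counts of higher and lower calls moved with the level of the probe sets and with the scaling. Among the 12 members averaging 16 or more over all arrays, 4 (33.3%) were higher and 1 (8.33%) lower on KAR1, against 25.1% and 13.7% of the probe sets at that level. On water these 12 gave the same counts, against 25.0% and 12.0%. Probe sets at 16 or more on all arrays had array medians 0.13 higher in ga1-3 than in WT on KAR1 and 0.16 higher on water (log2). When each array was centred on that median, 13 members were higher and 11 lower on KAR1, and 12 higher and 15 lower on water, while 12.3% and 31.1% of all probe sets were higher and lower on KAR1 and 11.5% and 35.9% on water. The share of members called higher stayed above that of all probe sets, at 28.9% on KAR1 and 26.7% on water after centring. Of the 12 members averaging 16 or more over all arrays, 4 were then higher and 1 lower on KAR1, against 20.0% and 19.8% of the probe sets at that level, and 3 higher and 2 lower on water, against 18.8% and 19.9%. The 18 members with a group mean of 16 or more had 10 higher and 1 lower on KAR1 both before and after centring, and on water 10 and 1 before and 9 and 2 after. After centring, 21.2% and 20.2% of all probe sets with such a mean were higher and lower on KAR1, and 20.0% and 20.4% on water. The 10 members called higher before centring include the 6 that reached a mean of 16 in ga1-3 only. For these 6, entering the class already goes with being higher in ga1-3. The 27 low members had 8 higher and 4 lower on KAR1 before centring, where 12.6% and 22.2% of low probe sets were higher and lower, and 3 and 10 after it, where the shares were 3.64% and 41.8%. On water they had 10 and 5 before centring, where the shares were 13.4% and 20.9%, and 3 and 13 after it, where the shares were 3.13% and 51.3%. Centring lowers every difference on a treatment by the same amount, so small differences at low values can change their call or sign by construction. With the hybridisation cluster as a block, 10 members were higher and 3 lower on KAR1 and 10 higher and 4 lower on water, against 9.40% and 10.4% of all probe sets on KAR1 and 9.28% and 9.14% on water.

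**Figure D2:**
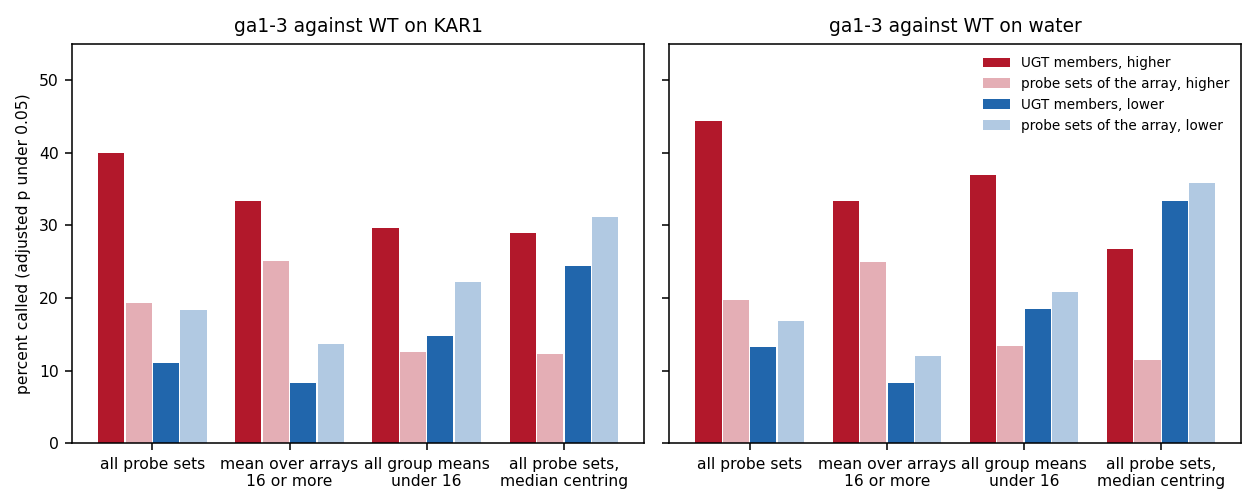
Percent of probe sets called higher (red) or lower (blue) in ga1-3 than in WT, for UGT members (dark) and for all probe sets of the same class (pale), on KAR1 (left) and on water (right). Among all probe sets 40.0% of members were higher on KAR1 against 19.3%, while in the class averaging 16 or more over all arrays the shares were 33.3% and 25.1%, and after median centring 28.9% and 12.3%.

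The same 11 of the 18 members with a group mean of 16 or more were called on both treatments, 10 higher and 1 lower. Of all probe sets with such a mean, 26.2% were higher and 14.3% lower on KAR1, and 26.0% and 12.7% on water. Higher in ga1-3 were UGT71B1, UGT73B4, UGT74B1, UGT76C1, UGT76C2, UGT76E12, UGT76E2, UGT78D3, UGT84A1 and UGT85A2, and lower was UGT85A5. Not called on either were UGT71C5, UGT72E1, UGT76E11, UGT80B1, UGT85A3, UGT85A4 and UGT87A2. Of those called higher, 6 (UGT71B1, UGT73B4, UGT76C2, UGT78D3, UGT84A1 and UGT85A2) reached a mean of 16 through ga1-3 alone, where they are high. In the values that follow, arrays are in the order of their batch letters. The sign ± gives the limma standard error of a log2 difference of ga1-3 minus WT, with 3 ga1-3 and 4 WT arrays. It rests on 1 spread per probe set from all 14 arrays. Where ga1-3 arrays spread more than WT arrays, it understates the ga1-3 spread. Where the WT mean lay under 16, the ratio is given as a lower bound against 16. Genotype groups without overlap were common on these arrays. On KAR1, 24.0% of all probe sets lay higher in ga1-3 without overlap and 24.5% lower. On water the shares were 22.6% and 21.7%.

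**Figure D3:**
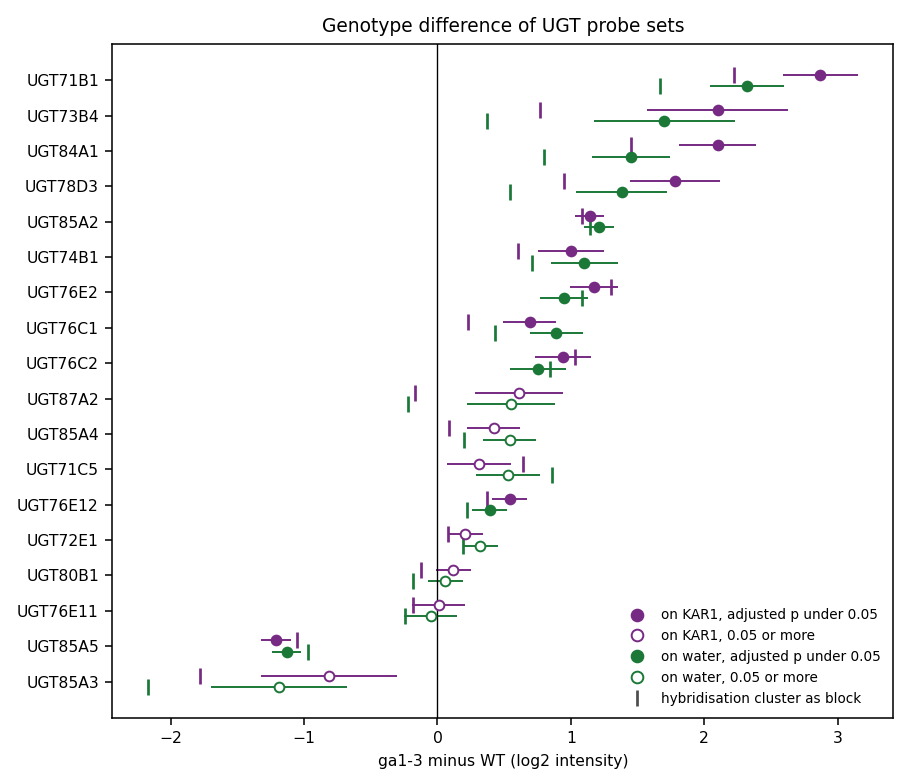
Log2 difference of ga1-3 minus WT on KAR1 (purple) and on water (green) for 18 UGT members, with standard errors as bars; filled points have an adjusted p under 0.05 and vertical ticks are the differences with the hybridisation cluster as a block. UGT71B1, at 2.87 on KAR1 and 2.32 on water, is drawn at the top although its WT values lie under 16, and UGT85A5 is the called member below 0 with -1.21 and -1.13.

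Hormone conjugation was represented by 8 members of the abscisic acid, auxin and cytokinin groups, of which 3 had a group mean of 16 or more. Both cytokinin N-glucosyltransferases, UGT76C1 and UGT76C2, were higher in ga1-3 on both treatments. Of all probe sets, 19.3% were called higher on KAR1 and 19.7% on water. Both enzymes inactivate cytokinins by linking glucose to the ring nitrogen. UGT76C1 had intensities of 29.3, 44.6 and 43.2 in ga1-3 on KAR1, against 19.6, 24.8, 25.2 and 26.1 in WT on KAR1. On water it had 43.5, 72.4 and 52.7 in ga1-3, against 25.9, 30.6, 27.5 and 35.6 in WT. Every ga1-3 array lay above every WT array of the same treatment. It was 1.61-fold higher on KAR1 (log2 0.69 ± 0.20, adjusted p = 0.0193) and 1.85-fold higher on water (0.89 ± 0.20, adjusted p = 0.00532). Under the cluster block the differences were 0.23 (adjusted p = 0.465) and 0.43 (adjusted p = 0.155). Without ga1-3 KAR1 array B or C the KAR1 difference was also no longer called, with an adjusted p of up to 0.0866.

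UGT76C2, next to UGT76C1 in the genome with no protein-coding gene between them, had 21.0, 15.8 and 20.9 in ga1-3 on KAR1, against 8.3, 9.1, 11.9 and 11.0 in WT. On water the ga1-3 arrays gave 18.8, 9.9 and 18.9, against 8.6, 8.9, 9.5 and 9.3 in WT. The groups did not overlap, but ga1-3 batch B on water came close to the highest WT array. The KAR1 difference was 0.94 ± 0.21 (adjusted p = 0.00513), at least 1.19-fold, and the water difference was 0.75 ± 0.21 (adjusted p = 0.0179), with both means under 16 and so no fold. With values under 16 raised to 16 the call was lost on both treatments. On water it was lost in 6 of 27 alternatives. Among these were the fit without ga1-3 batch A (0.59, adjusted p = 0.0765) and that with the cluster as a block (0.84, adjusted p = 0.0502).

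Of the 3 abscisic acid glucosyltransferases, UGT71C5 was the member above 16, and it was not called. It had 105.1, 76.1 and 61.0 in ga1-3 on KAR1, against 50.5, 70.8, 68.0 and 66.2 in WT. On water it had 116.4, 75.9 and 70.8 in ga1-3, against 42.6, 70.0, 63.0 and 66.0 in WT. Batch A stood out in both genotypes, as the highest ga1-3 array and the lowest WT array on each treatment. The differences were 0.31 ± 0.24 (adjusted p = 0.322) on KAR1 and 0.53 ± 0.24 (adjusted p = 0.107) on water. Under the cluster block they were 0.64 (adjusted p = 0.0825) and 0.86 (adjusted p = 0.0286). UGT71B6 and UGT71B8, which also glucosylate abscisic acid, stayed between 4.7 and 6.0 on all arrays. UGT71B8 was called higher on both treatments and UGT71B6 on water, by 0.06 to 0.15, and none of these calls held after median centring. The auxin glucosyltransferases UGT74D1, UGT84B1 and UGT84B2 all lay at low values, with differences of -0.02 to 0.02, and none was called. No member of the brassinosteroid group was measured under a single gene.

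The salicylate and benzoate group had 4 members, all under 16. UGT71C3, which glucosylates methyl salicylate, had 7.4, 7.9 and 7.5 in ga1-3 on KAR1, against 5.3, 5.5, 5.4 and 5.5 in WT. It was higher by 0.49 ± 0.06 (adjusted p = 7.74e-05) on KAR1 and by 0.54 ± 0.06 (adjusted p = 3.72e-05) on water, at intensities where no fold can be given. UGT76D1, which acts on dihydroxybenzoates, was lower by 0.12 to 0.14, and UGT74F1 and UGT76B1, which act on salicylate and, for UGT76B1, on N-hydroxypipecolate, were not called.

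Of 7 phenylpropanoid glucosyltransferases, 2 were called higher and 3 lower on each treatment, where 19.3% and 18.3% of all probe sets were called on KAR1 and 19.7% and 16.8% on water. UGT84A1 was the called member with a mean of 16 or more. UGT72E3 (higher) and UGT72B3, UGT84A3 and UGT84A4 (lower) had all means under 16. UGT84A1 makes glucose esters of hydroxycinnamic acids such as sinapate. It had 11.3, 34.4 and 28.3 in ga1-3 on KAR1, against 5.1, 5.2, 5.2 and 5.2 in WT, and 11.3, 17.1 and 14.4 in ga1-3 on water, against 5.1, 5.2, 5.1 and 5.2 in WT. The WT arrays were all at the bottom of the scale and ga1-3 was higher on every array. The KAR1 difference was 2.1 ± 0.29 (adjusted p = 0.000161), at least 1.39-fold, and the water difference was 1.45 ± 0.29 (adjusted p = 0.00236), with both means under 16. Blocking on the cluster gave 0.80 on water (adjusted p = 0.0269). The water call was lost with values under 16 raised to 16.

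UGT84A3, the next gene on the chromosome and an enzyme of the same reaction class, went the other way. All its means lay under 16. It had 6.3, 8.8 and 8.7 in ga1-3 on KAR1, against 10.4, 17.6, 15.6 and 13.3 in WT, and 7.3, 6.7 and 7.4 in ga1-3 on water, against 13.1, 12.0, 13.2 and 15.4 in WT. No ga1-3 array reached a WT array. It was lower by 0.83 ± 0.17 on KAR1 (log2 difference -0.83, adjusted p = 0.00282) and by 0.91 ± 0.17 on water (-0.91, adjusted p = 0.00171). With values under 16 raised to 16 these differences were -0.03 and 0.00. The third gene of this row, UGT84A4, lay between 4.2 and 4.4 on all arrays.

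UGT72E1, which glucosylates coniferyl and sinapyl aldehydes, was measured at high values and was not called. It had 694.8, 938.3 and 854.7 in ga1-3 on KAR1, against 705.4, 797.4, 595.7 and 764.1 in WT, and 849.2, 1008.8 and 923.8 in ga1-3 on water, against 763.5, 757.7, 643.4 and 808.9 in WT. The groups overlapped on KAR1 and did not on water. The differences were 0.21 ± 0.13 (adjusted p = 0.227) on KAR1 and 0.32 ± 0.13 (adjusted p = 0.0766) on water. The water difference was called without ga1-3 batch A, the lowest ga1-3 array on water (0.38, adjusted p = 0.0416). Its relative UGT72E3, which acts on the monolignol alcohols, had the smallest adjusted p of all members (7.33e-08 on KAR1, 1.40e-07 on water) for a difference of 0.27 ± 0.02 and 0.25 ± 0.02 between intensities of 5.3 to 5.5 in ga1-3 and 4.4 to 4.5 in WT. After median centring it was 0.14 on KAR1 (adjusted p = 0.0353) and 0.09 on water (adjusted p = 0.127).

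Among the 6 flavonoid members, 3 were called higher on both treatments (UGT71B1, UGT78D3 and UGT76E12), where 19.3% of all probe sets were higher on KAR1 and 19.7% on water. UGT71B1 and UGT78D3 reached a mean of 16 through ga1-3 alone, where they are high, and UGT76E12 lay above it in all groups. UGT71B1 glucosylates flavonols in vitro. It had 37.9, 54.1 and 50.0 in ga1-3 on KAR1, against 5.9, 6.4, 6.9 and 6.4 in WT, and 16.5, 43.1 and 43.3 in ga1-3 on water, against 6.1, 6.4, 6.3 and 6.4 in WT. The WT arrays were all near the bottom of the scale, and the lowest ga1-3 array was batch A on water. It was at least 2.93-fold higher on KAR1 (2.87 ± 0.28, adjusted p = 8.65e-06) and at least 1.96-fold higher on water (2.32 ± 0.28, adjusted p = 5.34e-05). Its log2 values on water had a standard deviation of 0.8 in ga1-3 and 0.03 in WT. When limma was fitted to the 2 groups compared alone, the adjusted p was 3.12e-05 on KAR1 and 0.00336 on water.

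UGT78D3 transfers arabinose to flavonols. It had 12.0, 37.5 and 28.4 in ga1-3 on KAR1, against 6.5, 7.1, 6.9 and 6.7 in WT, and 10.9, 23.2 and 23.7 in ga1-3 on water, against 6.8, 7.4, 6.8 and 6.9 in WT. Every ga1-3 array was higher than every WT array, with batch A the lowest on both treatments. The differences were 1.78 ± 0.34 on KAR1 (adjusted p = 0.00169, at least 1.46-fold) and 1.38 ± 0.34 on water (adjusted p = 0.0082, at least 1.14-fold). Blocking on the cluster gave 0.95 (adjusted p = 0.00109) and 0.54 (adjusted p = 0.0214). With values under 16 raised to 16 the water call was lost.

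UGT76E12 and UGT76E11, which act on flavonols in vitro and have 1 protein-coding gene between them, were both measured at high values in all groups. UGT76E12 had 885.3, 944.5 and 841.1 in ga1-3 on KAR1, against 561.6, 620.8, 723.6 and 547.7 in WT, and 787.8, 946.8 and 1040.4 in ga1-3 on water, against 575.6, 769.3, 749.4 and 720.3 in WT. Neither pair of groups overlapped. It was 1.46-fold higher on KAR1 (0.54 ± 0.13, adjusted p = 0.00777) and 1.31-fold higher on water (0.39 ± 0.13, adjusted p = 0.0384). With the cluster as a block these were 0.37 (adjusted p = 0.17) and 0.22 (adjusted p = 0.445), and the water call was also lost after median centring (0.23, adjusted p = 0.122) and without WT batch A (0.30, adjusted p = 0.0762). UGT76E11 had 310.0, 298.3 and 335.8 in ga1-3 on KAR1, against 220.4, 362.9, 383.5 and 310.8 in WT. Its WT arrays spread around the ga1-3 arrays, and the differences were 0.01 ± 0.20 on KAR1 (adjusted p = 0.981) and -0.05 ± 0.20 on water (adjusted p = 0.861). The remaining flavonoid members, UGT71C1 and UGT73B1, stayed between 4.3 and 5.9 on all arrays, and UGT71C1 was called lower on water by 0.06 ± 0.02 (log2 difference -0.06, adjusted p = 0.0418).

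UGT74B1 catalyses the S-glucosylation in the synthesis of the glucosinolate core, and it was higher in ga1-3. It had 58.8, 87.9 and 103.0 in ga1-3 on KAR1, against 33.3, 40.0, 38.7 and 53.0 in WT, and 65.6, 100.0 and 62.8 in ga1-3 on water, against 27.9, 44.2, 37.6 and 31.4 in WT. All ga1-3 arrays lay above all WT arrays of their treatment. The ratio was 1.99-fold on KAR1 (1.00 ± 0.25, adjusted p = 0.00771) and 2.14-fold on water (1.1 ± 0.25, adjusted p = 0.0046). With the cluster as a block the differences were 0.60 (adjusted p = 0.202) and 0.71 (adjusted p = 0.137).

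The sterol glucosyltransferase UGT80B1, whose loss changes seed coat pigmentation, was similar in level across the groups. It had 62.9, 73.9 and 79.9 in ga1-3 on KAR1, against 59.8, 62.1, 75.3 and 68.6 in WT, and 63.7, 81.2 and 69.7 in ga1-3 on water, against 63.2, 73.0, 70.3 and 67.6 in WT. The groups overlapped on both treatments. The differences were 0.12 ± 0.13 (adjusted p = 0.467) and 0.06 ± 0.13 (adjusted p = 0.74).

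Of 4 stress and detoxification members, UGT73B4 and its direct neighbour UGT73B5 were called higher on both treatments. Both belong to a group known for pathogen and redox responses. UGT73B4 had 23.7, 39.5 and 64.8 in ga1-3 on KAR1, against 6.6, 8.5, 11.8 and 10.6 in WT, and 7.5, 41.2 and 39.1 in ga1-3 on water, against 6.2, 7.6, 7.3 and 7.2 in WT. On water ga1-3 batch A lay inside the WT range while B and C lay far above it. The differences were 2.1 ± 0.53 on KAR1 (adjusted p = 0.0084, at least 2.46-fold) and 1.70 ± 0.53 on water (adjusted p = 0.0251, at least 1.43-fold). With the cluster as a block they were 0.77 (adjusted p = 0.164) and 0.37 (adjusted p = 0.549), and without ga1-3 batch A 2.47 and 2.51. The water call was also lost without 1 of 3 arrays, namely ga1-3 B, ga1-3 C or WT A, with differences of 1.28, 1.32 and 1.64. Raising values under 16 to 16 lost the water call too. UGT73B5 stayed between 5.6 and 8.6 on all arrays, and UGT73C1, which conjugates xenobiotics, between 4.7 and 4.9 with no call.

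UGT87A2, known for its part in flowering time, showed the same split without a call. It had 345.7, 740.2 and 744.2 in ga1-3 on KAR1, against 309.4, 422.2, 406.3 and 384.3 in WT, and 312.9, 752.7 and 641.7 in ga1-3 on water, against 280.0, 481.6, 385.4 and 333.0 in WT. Batches B and C of ga1-3 lay above all WT arrays and batch A lay inside the WT range on both treatments. The differences were 0.61 ± 0.33 (adjusted p = 0.169) on KAR1 and 0.55 ± 0.33 (adjusted p = 0.212) on water. Without ga1-3 batch A they were 0.97 (adjusted p = 0.00376) and 0.94 (adjusted p = 0.00462), and with the cluster as a block -0.17 and -0.22. Leaving out the lowest ga1-3 arrays raises the difference by construction.

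The other 14 members have no role in the lists used here, and 5 of them had a mean of 16 or more. UGT76E2 had 64.6, 49.7 and 57.3 in ga1-3 on KAR1, against 27.3, 25.9, 28.9 and 19.9 in WT, and 37.3, 31.3 and 39.2 in ga1-3 on water, against 14.1, 22.0, 19.5 and 19.3 in WT. The ga1-3 arrays lay above the WT arrays on both treatments. It was 2.25-fold higher on KAR1 (1.17 ± 0.18, adjusted p = 0.000315) and 1.94-fold higher on water (0.95 ± 0.18, adjusted p = 0.00142).

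Family 85A stands as 5 members, of which UGT85A7, UGT85A2, UGT85A5 and UGT85A3 follow each other in the genome with no protein-coding gene between them. UGT85A2 and UGT85A5 differed in opposite directions. UGT85A2 had 22.6, 24.3 and 21.0 in ga1-3 on KAR1, against 8.9, 11.5, 9.6 and 11.2 in WT, and 20.5, 21.4 and 21.6 in ga1-3 on water, against 8.1, 9.4, 9.5 and 9.7 in WT. The 3 ga1-3 batches were close together here, batch A included. It was at least 1.41-fold higher on KAR1 (1.14 ± 0.11, adjusted p = 6.96e-06) and at least 1.32-fold higher on water (1.21 ± 0.11, adjusted p = 4.40e-06).

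UGT85A5 had 173.5, 177.7 and 169.5 in ga1-3 on KAR1, against 434.1, 462.3, 342.6 and 373.9 in WT, and 203.0, 176.8 and 167.8 in ga1-3 on water, against 381.5, 417.8, 414.7 and 383.7 in WT. The groups were far apart on both treatments. It was 2.31-fold lower on KAR1 (-1.21 ± 0.11, adjusted p = 5.93e-06) and 2.19-fold lower on water (-1.13 ± 0.11, adjusted p = 1.07e-05). UGT85A3, the next gene, had 15.8, 36.6 and 32.5 in ga1-3 on KAR1, against 18.0, 67.5, 56.1 and 69.1 in WT, and 15.4, 32.1 and 28.5 in ga1-3 on water, against 30.9, 83.2, 58.7 and 61.8 in WT. Batch A was the lowest array in both genotypes. The differences were -0.81 ± 0.51 (adjusted p = 0.23) and -1.19 ± 0.51 (adjusted p = 0.0868). Without WT batch A both were called, at -1.27 (adjusted p = 0.0114) and -1.47 (adjusted p = 0.0055). Leaving out the lowest WT arrays makes such a difference larger by construction. UGT85A7 stayed between 5.9 and 7.7 on all arrays.

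UGT85A4 had 72.5, 91.6 and 73.0 in ga1-3 on KAR1, against 49.1, 51.2, 65.1 and 72.0 in WT, and 73.4, 86.1 and 76.7 in ga1-3 on water, against 38.7, 54.8, 58.9 and 68.6 in WT. The groups did not overlap but nearly met on KAR1. The differences were 0.42 ± 0.20 (adjusted p = 0.11) and 0.54 ± 0.20 (adjusted p = 0.0508). Among the 9 remaining members of this group, all under 16, UGT71C2 had 6.4, 7.9 and 9.2 in ga1-3 on KAR1, against 4.3, 4.4, 4.4 and 4.4 in WT (0.82 ± 0.10, adjusted p = 5.59e-05).

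The RefSeq table placed 29 members in 17 pairs with up to 3 protein-coding genes between them, 14 with none. In 11 of the 17 pairs the differences of both genes had the same sign on both treatments. Both genes were called on both treatments in 7 pairs. They were called the same way in 5 of these, and in opposite directions in the other 2, UGT85A2 with UGT85A5 and UGT84A1 with UGT84A3. The 5 were UGT76C2 with UGT76C1, UGT73B5 with UGT73B4, UGT71C4 with UGT71C3, UGT84A3 with UGT84A4 and UGT76E1 with UGT76E2. UGT73B5, UGT71C4, UGT71C3, UGT84A3, UGT84A4 and UGT76E1 had all means under 16. The difference of UGT84A4 (-0.05) changed sign under quantile normalization, and that of UGT76E1 (0.09) under median centring. The share among other neighbouring genes was not computed. Closely related genes can share probe sequence. The names of the 45 probe sets carry no mark of shared probes, but cross-hybridisation was not tested.

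Seed batch A lay lower than the other batches in most of the 18 members with a group mean of 16 or more, in each genotype. Such counts were not made for the other batches, and the letter A names different seed in ga1-3 and WT. Batch A of ga1-3 also lay in another hybridisation cluster than B and C. In ga1-3, batch A was lower than the mean of B and C in 13 of the 18 members on KAR1 (72.2%) and 14 on water (77.8%), against 49.5% and 53.0% of the 11281 probe sets with a group mean of 16 or more. The median deviation was -0.33 on KAR1 and -0.26 on water, against 0.00 and -0.03 (log2). Among the deviations were those of UGT73B4 on water (-2.42), UGT84A1 on KAR1 (-1.47), UGT78D3 on KAR1 (-1.44) and UGT71B1 on water (-1.39). In WT, batch A was lower than the mean of B, C and D in 16 of 18 members on KAR1 and 17 on water, against 66.0% and 64.4% of those probe sets. The median there was -0.31 and -0.26, against -0.14 and -0.14. These counts are descriptions, since the 18 members share their arrays.

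**Figure D4:**
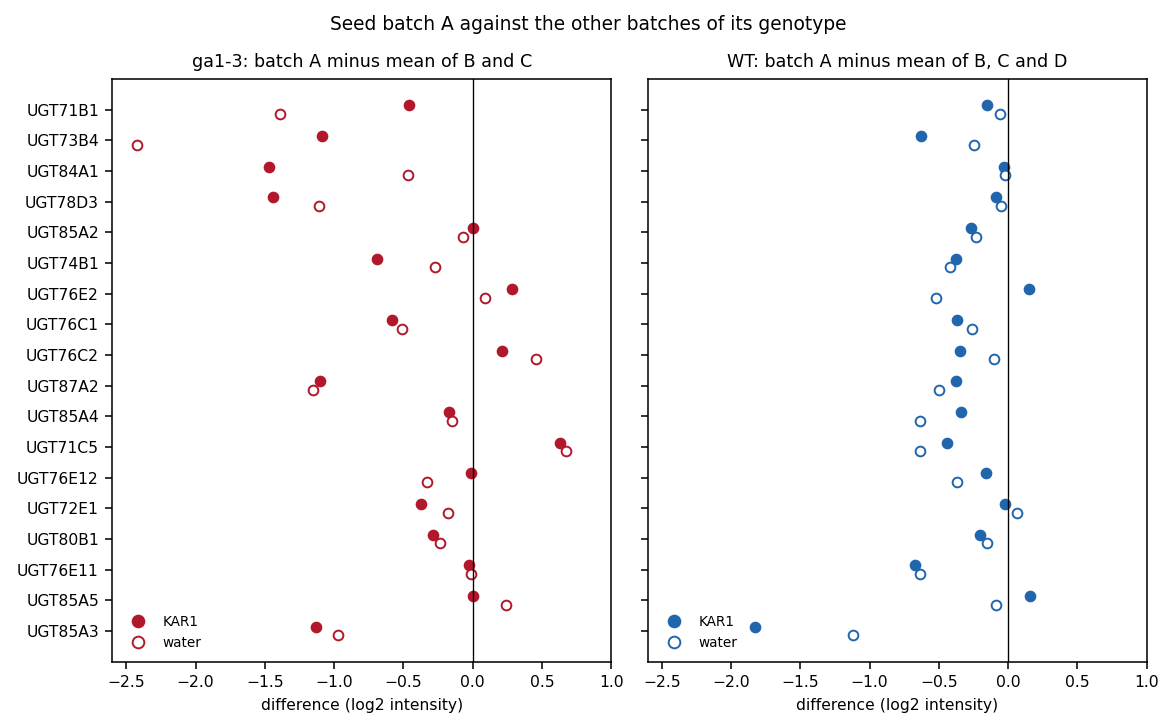
Seed batch A minus the mean of the other batches of its genotype for 18 UGT members, in ga1-3 (left) and WT (right), on KAR1 (filled) and water (open), in log2 intensity. In ga1-3 UGT73B4 on water reaches -2.42 while UGT71C5 lies at 0.63 on KAR1 and 0.67 on water, and in WT UGT85A3 on KAR1 reaches -1.83.

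The KAR1 comparison asks which UGT transcripts respond to the compound, in the mutant that never germinates and in WT seed, whose germination it promotes. No member was called in ga1-3, in WT or in the difference of the KAR1 effects between genotypes. In all 3 comparisons limma called 0.0% of all probe sets. With the seed batch as a block it called 3 probe sets higher in ga1-3 (0.0132%), none of them a member, and 0 in WT and in the interaction. An unadjusted limma p under 0.05 was found for 3 of the 45 members in ga1-3, 1 in WT and 1 in the interaction. Of all 22746 probe sets, 456 in ga1-3, 462 in WT and 116 in the interaction had such a p. With the seed batch as a block, 10, 2 and 5 of the 45 members had such a p, against 1726, 1666 and 615 of the 22746 probe sets. The share of members was then above that of all probe sets in ga1-3 and in the interaction, and below it in WT. These counts are descriptions, since the members share their arrays. The log2 differences of KAR1 minus water ran from -0.52 to 0.78 in ga1-3 and from -0.32 to 0.45 in WT. The median standard error over the 18 members was 0.224 in ga1-3 and 0.194 in WT, and 0.108 and 0.0938 with the seed batch, which the KAR1 and water arrays share, as a block. With that block the lowest limma adjusted p of a member was 0.291 in ga1-3 and 0.451 in WT. Standard errors and p given below for KAR1 in a single genotype come from the fit without the block and so do not use the pairing.

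Only UGT76E2 was higher on KAR1 in all 7 seed batches, and only UGT76C1 was lower in all 7, of the 45 members. Among probe sets with a group mean of 16 or more, 4.41% were higher and 4.18% lower in all 7, so 1 of 18 members each way is near that background. The log2 differences of UGT76E2 were 0.79, 0.67 and 0.55 in ga1-3 A to C and 0.95, 0.24, 0.57 and 0.04 in WT A to D, with no call in either genotype. The ga1-3 KAR1 arrays lay above the ga1-3 water arrays without overlap (0.67 ± 0.19, unadjusted p = 0.00413, adjusted p = 1.0), as in 1.93% of all probe sets, and the WT groups overlapped (0.45 ± 0.16, unadjusted p = 0.0177, adjusted p = 1.0). Averaged over both genotypes the difference was 0.56 ± 0.12 (adjusted p = 0.404), with adjusted p = 0.101 with the seed batch as a block and 0.0402 with it as a random block.

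For UGT76C1 the log2 differences were -0.57, -0.70 and -0.29 in ga1-3 A to C and -0.40, -0.30, -0.13 and -0.45 in WT A to D. The group differences were -0.52 ± 0.22 in ga1-3 (adjusted p = 1.0) and -0.32 ± 0.19 in WT (adjusted p = 1.0). Averaged over both genotypes it was -0.42 ± 0.14 (adjusted p = 1.0), with adjusted p = 0.0762 with the seed batch as a block.

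UGT84A1 differed between the ga1-3 batches in its KAR1 effect, with 0.00 in A, 1.01 in B and 0.97 in C, while WT A to D gave 0.00, 0.00, 0.03 and 0.00 at the bottom of the scale. The difference in ga1-3 was 0.66 ± 0.31 (adjusted p = 1.0). Without both ga1-3 batch A arrays it was 0.99 (adjusted p = 0.0108), and the interaction was then 0.98 (adjusted p = 0.0843). Leaving out the ga1-3 batch with the smallest KAR1 effect raises both by construction. UGT71C2, at low values, was the third member below that unadjusted threshold in ga1-3, with a difference of 0.27 ± 0.10 and an adjusted p of 1.0 in limma.

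**Figure D5:**
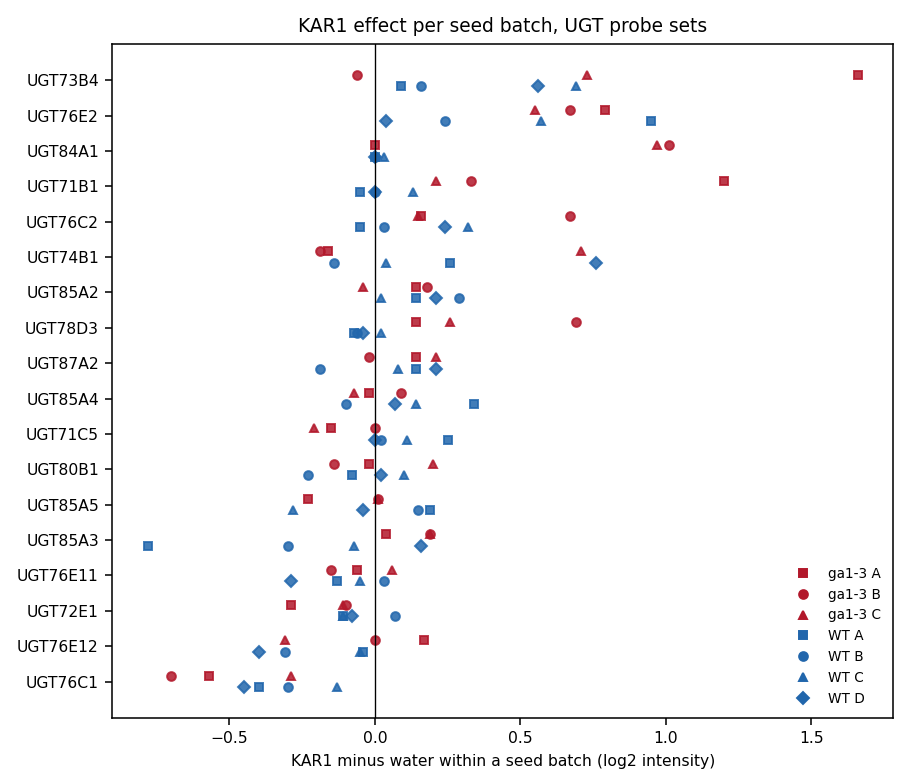
KAR1 minus water within each seed batch, in log2 intensity, for 18 UGT members ordered by the mean over batches, with 3 ga1-3 batches (red) and 4 WT batches (blue). All 7 points of UGT76E2 lie above 0, from 0.04 to 0.95, and all 7 of UGT76C1 lie below 0, from -0.70 to -0.13.

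UGT enzymes depend on the supply of UDP-sugars. Of 25 genes of nucleotide sugar supply, the annotation pairs a probe set with 1 by name, USP, a UDP-sugar pyrophosphorylase. It averaged 140.2 and 154.3 in ga1-3 on KAR1 and on water, against 124.3 and 129.2 in WT. It was called in neither genotype comparison, with differences of 0.17 ± 0.19 on KAR1 (adjusted p = 0.496) and 0.26 ± 0.19 on water (adjusted p = 0.318).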

How the data were processed

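RNA of 14 seed samples was measured on single-colour arrays, 7 ug of total RNA each. The deposited values are intensities on a linear scale, which the authors made with GCRMA per the submitters' processing notes (version not given in the sources used here). Whether all arrays were normalized together is not stated. The log2 of each intensity was taken; 64 of 22810 probe sets were controls and were left out. Gene names come from the platform annotation (13513 probe sets with 1 gene, 503 with several, 8730 not listed), and gene order from the RefSeq table.

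limma 3.58.1 in R 4.3.3 fitted 4 group means to all 14 arrays (lmFit, eBayes with trend and robust, 10 residual degrees of freedom, two-sided), with Benjamini-Hochberg adjustment over 22746 probe sets; all adjusted p come from it. The script was tested on simulated data. Members and lists were chosen with earlier results of these data known. Named with full values are called members with a mean of 16 or more, the smallest p where fewer than 3 were called, and measured members of the hormone, phenylpropanoid, glucosinolate and sterol groups; values of the other members at 16 or more were added.

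Per the labels, a letter names a harvested seed batch, which pairs KAR1 and water arrays of the same genotype and letter; their deviations from the group means correlated at 0.507 to 0.855. Across genotypes the same letter stands for different seed. The mean KAR1 effect over both genotypes was added after the data were seen. Arrays hold no counts, so no depth applies; their number limits the precision.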

Additional observations from a re-analysis of the deposited data

Results flagged for a closer look

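In groups of 4 arrays, a single array stood far from the other 3 in 2 of 36 groups examined (18 members, WT on KAR1 and on water), and chance alone gives such an array in about 1 of 20 groups. UGT85A3 in WT on KAR1 had 18.0 in batch A, against 56.1 to 69.1 in B to D. UGT84A1 in WT on KAR1 had 5.1 in batch A, against 5.2 in B to D, which is 1 step of the deposited decimal.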

How the results depend on the processing

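The members called between genotypes numbered 23 on KAR1 (51.1%, against 37.6% of all probe sets) and 26 on water (57.8%, against 36.5%). Leaving out 1 array at a time gave 21 to 25 on KAR1 and 20 to 30 on water. Fitting only the 2 groups compared gave 24 on KAR1 and 20 on water. Raising values under 16 to 16 gave 10 on KAR1 (22.2%, against 14.9% of all probe sets) and 6 on water (13.3%, against 13.9%). On water this share of members is near that of all probe sets. Keeping probe sets with a group mean of 16 or more gave 11 and 12. Both settings test fewer measured members by construction. The hybridisation cluster as a block gave 13 and 14, and the cluster with both genotypes alone, where ga1-3 has 1 array per treatment and the spread comes from WT, gave 15 and 14; the cause was not tested. A replicate block on the letter across genotypes, although it names different seed, gave 27 on KAR1 and 31 on water. With the replicate block (seed batch), the KAR1 comparisons in ga1-3 and in WT and the interaction had 0 members called, as without it, and it changed no call of a single member there. The KAR1 comparison in ga1-3 gave 0 to 1 without 1 array, and 1 (UGT84A1) without both ga1-3 batch A arrays. The mean KAR1 effect gave 0 with the replicate block, 1 (UGT76E2) with the seed batch as a random block and 1 (UGT84A1) without both ga1-3 batch A arrays.

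Over 27 alternatives per comparison, 5 of 11 called members with a mean of 16 or more kept their call on KAR1 under all of them (UGT71B1, UGT78D3, UGT84A1, UGT85A2 and UGT85A5) and 3 of 11 on water (UGT71B1, UGT85A2 and UGT85A5). All of these except UGT85A5 reached a mean of 16 in ga1-3 only, so their place in this class already goes with the direction tested. Many of the 27 alternatives leave out 1 array and so are close to each other. The call of UGT76E2 was lost in the cluster with both genotypes alone (1.43, adjusted p = 0.0901 on KAR1; 0.94, adjusted p = 0.175 on water). No called member with a mean of 16 or more changed sign under any alternative run. Among called members under 16, median centring turned the sign of 3 on KAR1 (UGT71B8, UGT76E1 and UGT88A1) and 4 on water (these and UGT71B6), where the uncentred differences were at most 0.10 and 0.15, and quantile normalization that of UGT84A4 (0.01, against -0.05 without it) on both treatments. None of these was called after the change. Precision is limited by 3 and 4 arrays per group, by signals near the bottom of the scale in 27 members, and by GCRMA values whose lowest level was 3.5 to 3.6 in ga1-3 arrays and 3.7 to 3.9 in WT arrays.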
